A study of Mus musculus with 16 samples.

Results

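Flavin monooxygenases (FMOs) and aldehyde oxidases (AOXs) are oxidizing enzymes of drug and xenobiotic metabolism that work beside the cytochrome P450s. FMOs are bound to the endoplasmic reticulum, carry FAD, take electrons from NADPH, and add oxygen to nitrogen or sulfur atoms of drugs, pesticides and dietary amines. AOXs are cytosolic enzymes that carry FAD, iron-sulfur clusters and a sulfurated molybdenum cofactor, and oxidize aldehydes, among them retinaldehyde, and nitrogen-containing rings. The 6 genes described here, Fmo1, Fmo2, Fmo4, Fmo5, Aox1 and Aox3, were taken by name from a table of 41079 genes. All 6 passed the filter on low counts and were among the 16742 genes tested.

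The livers came from mice aged 20 to 22 months on a C57BL/6J background in which both groups carried a Gcgr gene flanked by LoxP sites. Gcgr encodes the glucagon receptor. LKO mice also carried Albumin-Cre, which is active in hepatocytes and removes part of the gene for life, whereas CRE- controls had no Cre and kept the receptor. Cre alone was not among the groups, so that the transgene and the loss of the receptor cannot be told apart. There were 4 male CRE-, 4 male LKO, 4 female CRE- and 4 female LKO livers, each from a separate library of poly-A RNA with 33268424 to 56488920 counted reads. Levels are given as CPM, the count scaled to a common library size after TMM normalization. Comparisons used the quasi-likelihood F test of edgeR, with p adjusted by the Benjamini-Hochberg method over all genes tested, and a gene was called at an adjusted p under 0.05. Beside calls that depend on single libraries, the number of the 16 fits without 1 library that kept the call is given.

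Gcgr was examined first as a check of the genotypes. Its level was 190.4, 193, 127 and 189.6 CPM in the male CRE- livers and 117, 136, 130 and 160 CPM in the male LKO livers. In females it was 162, 208, 201 and 180.0 CPM in CRE- and 48.8, 132, 119 and 93.6 CPM in LKO. The female groups did not overlap, and Gcgr was lower in female LKO (log2 fold change -0.93 ± 0.25 SE, edgeR adjusted p = 0.0443). This call was kept in 3 of 16 fits without 1 library, with an adjusted p of at most 0.136. The adjusted p was 0.00899 with DESeq2, 0.00859 with limma-voom and 0.0266 with the replicate number as a block. With edgeR it was 0.0545 with no filter, 0.0506 with at least 10 counts in every library and 0.132 with each sex fitted alone. It was 0.0872 without male LKO replicate 1 and female LKO replicate 4, and 0.0562 without male LKO replicate 1 and male CRE- replicate 2. The male groups overlapped through CRE- replicate 3 (log2 fold change -0.37 ± 0.24 SE, edgeR adjusted p = 0.671). The deposited counts are per gene, so that the deleted part could not be examined on its own. Xist, which is transcribed from the inactive X chromosome, reached at most 0.244 CPM in any male library and at least 137 CPM in every female library, and the Y-linked gene Ddx3y was at least 38.5 CPM in males and 0 CPM in every female library, so each library matched its sex label. The 9 hepatocyte markers found in the table, led by Alb, summed to between 55140 and 137200 CPM in every library.

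Male LKO replicate 1 stood apart from the other males. Of the 154 genes that differed between female and male CRE- livers, 66 (42.9%) lay nearer to the female than to the male control mean in this library, against 21, 23 and 16 in the other male LKO livers. It held 60.4 CPM of Cux2, a female-specific repressor of male liver genes, where the other male LKO livers held 0.833, 0.894 and 0.54 CPM. Mup20, a male urinary pheromone carrier, was at 233 CPM there and at 10150, 18450 and 12300 CPM in the others. The pattern was not that of a female liver throughout, since A1bg, which ranged from 935 to 4711 CPM in female controls, was at 0.72 CPM. Among male controls, replicate 2 had the highest sum of 13 female-biased liver genes, at 456 CPM, against 72.7, 120 and 75.7 CPM in the others. Male LKO replicate 1 had the highest Fmo1, Fmo2, Fmo4 and Aox1 and the lowest Aox3 of the 8 males, and several results below are also given without it. Traces of other tissues were found as well. Pancreatic acinar markers, led by Cela1, summed to 107 CPM in male CRE- replicate 2 and 429.9 CPM in female CRE- replicate 2, and to at most 28.2 CPM elsewhere. Skeletal muscle markers, led by Acta1, summed to 73.7 and 49.4 CPM in male LKO replicates 3 and 4, and to at most 18.6 CPM elsewhere. Adipocyte markers, led by Cfd, summed to 103 and 83.0 CPM in male LKO replicates 2 and 4, and to at most 22.3 CPM elsewhere. The part of these traces in the levels of the 6 genes was not tested.

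**Figure D1:**
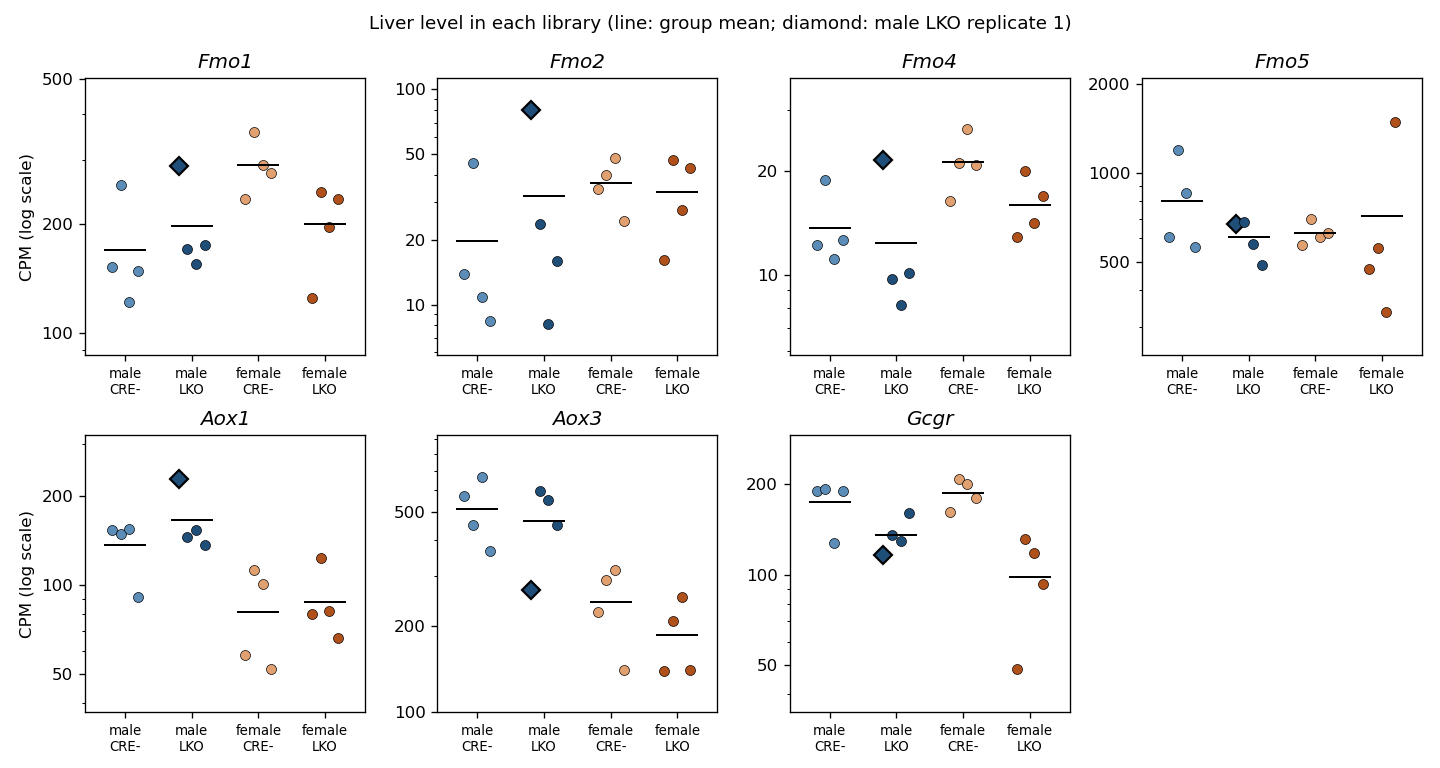
Level of the 6 genes and of Gcgr in each of the 16 livers, in CPM on a log axis, with 1 panel per gene and 1 column per group; lines are group means and the diamond is male LKO replicate 1. That library had the highest Fmo2 (80.3 CPM) and Aox1 (229 CPM) of all 16 libraries, and its Aox3 (268 CPM) lay within the range of the female livers.

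The 6 genes lie at 3 places in the genome. Aox1 (chr1:58068963-58145569) and Aox3 (chr1:58152294-58241380) are neighbors on the plus strand of GRCm39 in a cluster of 349461 bases that also holds Aox4 and Aox2. Fmo4 (chr1:162620757-162643788), Fmo1 (chr1:162657130-162694170) and Fmo2 (chr1:162701886-162726327) lie side by side on the minus strand in a stretch of 144379 bases that ends with Fmo6. Fmo5 (chr3:97517248-97562603) stands alone on chromosome 3, on the plus strand. Fmo5 shares 160 bases of exon with Chd1l on the other strand, and none of the other 5 genes shares exon bases with another gene of the table.

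Expression was uneven along both clusters. Aox4 had 14 reads and Aox2 33 reads over all 16 libraries, against 80808 for Aox1 and 244201 for Aox3. In the FMO stretch Fmo6 had 26 reads in all, against 147508 for Fmo1, 20735 for Fmo2 and 10817 for Fmo4. Fmo9, which lies apart from them on chromosome 1, had 0 reads in every library. Fmo6, Fmo9, Aox2 and Aox4 did not pass the filter and were not tested.

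**Figure D2:**
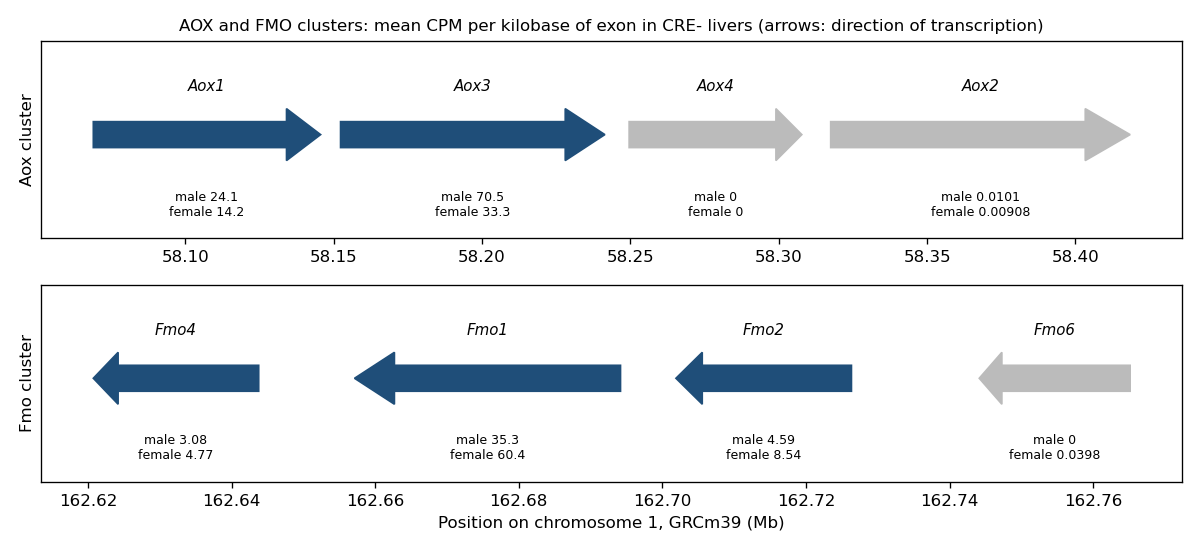
Map of the AOX cluster (top) and the stretch from Fmo4 to Fmo6 (bottom) on chromosome 1 of GRCm39, positions in megabases, with each gene drawn to scale as an arrow in its direction of transcription. Numbers are mean CPM per kilobase of exon in male and female CRE- livers (n = 4 each); Fmo1 reads 35.3 in males and 60.4 in females, and the gray genes stay below 1 in every group.

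Compared per length, as CPM per kilobase of exon, Fmo5 was the most abundant of the 6 genes in male CRE- livers (97.9 ± 35.3 SD, n = 4). It was followed by Aox3 (70.5 ± 18), Fmo1 (35.3 ± 12.3), Aox1 (24.1 ± 5.39), Fmo2 (4.59 ± 4.06) and Fmo4 (3.08 ± 0.777). The ranges of mean ± SD overlapped between Fmo5 and Aox3, between Fmo1 and Aox1, and between Fmo2 and Fmo4. In female CRE- livers Fmo5 was again first (76.3 ± 6.47 SD, n = 4), but Fmo1 (60.4 ± 10.8) stood above Aox3 (33.3 ± 10.7), with Aox1 (14.2 ± 5.31), Fmo2 (8.54 ± 2.31) and Fmo4 (4.77 ± 0.936) below. In these livers the ranges of mean ± SD overlapped between Fmo5 and Fmo1 and between Aox1 and Fmo2. Fmo1 thus ranked 3 in male and 2 in female controls, and Aox3 the reverse. Male LKO livers had the order of male controls and female LKO livers that of female controls. In males this order depended on single libraries, since Aox3 (73.3) stood above Fmo5 (70.9) in LKO without replicate 1, and Fmo4 (2.69) above Fmo2 (2.58) in CRE- without replicate 2. Both female orders were the same without each library in turn. Among neighbors in the male LKO order, all ranges of mean ± SD overlapped but those of Aox1 and Fmo2, and in the female LKO order Fmo5 overlapped Fmo1, Fmo1 overlapped Aox3, and Aox3 overlapped Aox1.

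Loss of the receptor was compared within each sex to ask whether these enzymes depend on hepatic glucagon signaling at old age. None of the 6 genes was called by edgeR in males, where 76 genes were called (0.454% of those tested), and none in females, where 710 were called (4.24%). At an unadjusted p under 0.05 edgeR gave 0 of 6 in both sexes, against 1595 genes in males and 3584 in females among all tested, and at an adjusted p under 0.05 DESeq2 and limma-voom gave 0 of 6 as well. The number of all genes called depended on single libraries, from 26 without male CRE- replicate 3 to 111 without female LKO replicate 1 in males, and from 87 without female CRE- replicate 2 to 1310 without female LKO replicate 2 in females. The median log2 fold change of the 6 genes was 0.04 in males, against -0.01 over all genes tested, and -0.26 in females, against 0.04. With 4 mice a group, a p above the threshold does not show that levels were equal.

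Fmo1, an FMO with a broad range of amine and sulfide substrates, had the smallest p of the 6. In females it was at 234, 359, 291 and 276 CPM in CRE- and 125, 245, 196 and 235 CPM in LKO. Only LKO replicate 2 and replicate 4 lay above the lowest control. The log2 fold change was -0.53 ± 0.27 SE (95% interval -1.11 to 0.04, unadjusted p = 0.0657, edgeR adjusted p = 0.269), and -0.34 without LKO replicate 1. In males Fmo1 was at 152, 256, 122 and 148 CPM in CRE- and 289, 171, 155 and 175 CPM in LKO. These groups overlapped, with the highest value of each in CRE- replicate 2 and LKO replicate 1 (log2 fold change 0.22 ± 0.27 SE, edgeR adjusted p = 0.826). The male log2 fold change was -0.04 without LKO replicate 1, 0.08 without CRE- replicate 3 and 0.49 without CRE- replicate 2.

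Fmo2, the main FMO of the lung in many mammals, was scattered widely within the male groups. It was at 13.9, 45.6, 10.9 and 8.43 CPM in male CRE- livers and at 80.3, 23.7, 8.12 and 16.02 CPM in male LKO livers. The same male CRE- replicate 2 and male LKO replicate 1 that led Fmo1 led here. Its male log2 fold change of 0.70 ± 0.61 SE (edgeR adjusted p = 0.752) became -0.32 without LKO replicate 1 and 1.53 without CRE- replicate 2. Female livers held 34.3, 40.1, 47.9 and 24.4 CPM in CRE- and 16.1, 46.8, 27.4 and 43.1 CPM in LKO, which overlapped (log2 fold change -0.14 ± 0.61 SE, edgeR adjusted p = 0.928, and from -0.35 without LKO replicate 2 to 0.11 without LKO replicate 1).

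Fmo4, a family member of low abundance in liver, was at 12.2, 18.8, 11.1 and 12.6 CPM in male CRE- and 21.5, 9.70, 8.15 and 10.1 CPM in male LKO livers. Apart from LKO replicate 1, each male LKO liver lay below the lowest male control. The log2 fold change was -0.15 ± 0.28 SE with all libraries (edgeR adjusted p = 0.897) and -0.57 without LKO replicate 1, which did not pass either, and it was 0.05 without CRE- replicate 2 and 0.01 without LKO replicate 3. Female CRE- livers held 16.4, 21.1, 26.6 and 20.8 CPM and female LKO livers 12.9, 20.0, 14.2 and 16.9 CPM. The female groups overlapped, and the log2 fold change was -0.41 ± 0.28 SE (edgeR adjusted p = 0.43).

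Fmo5, which differs from the other FMOs in inserting oxygen next to carbonyl groups, was at 608, 1193, 852 and 561 CPM in male CRE- livers. Male LKO livers held 673, 683, 576 and 486 CPM, within or below the control range (log2 fold change -0.41 ± 0.36 SE, edgeR adjusted p = 0.757, and -0.15 without CRE- replicate 2). Female CRE- livers were close together at 571, 698, 609 and 626 CPM, and female LKO livers held 472, 557, 338 and 1489 CPM. Replicates 1, 2 and 3 of female LKO lay below every female control, and replicate 4 had the highest Fmo5 of all 16 libraries. That library set the sign of the female log2 fold change, which was 0.19 ± 0.36 SE with it (edgeR adjusted p = 0.818) and -0.46 without it. Neither value passed the test.

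Neither AOX gene was called by edgeR with genotype in either sex. Aox1, which oxidizes retinaldehyde among other substrates, was at 153, 149, 155 and 91.2 CPM in male CRE- and 229, 146, 154 and 137 CPM in male LKO livers. LKO replicate 1 alone exceeded the controls (log2 fold change 0.28 ± 0.28 SE, edgeR adjusted p = 0.784, and 0.07 without it). Female livers held 58.2, 112, 101 and 52.0 CPM in CRE- and 79.7, 124, 81.8 and 66.1 CPM in LKO, with wide overlap (log2 fold change 0.12 ± 0.28 SE, edgeR adjusted p = 0.856, and from -0.09 without LKO replicate 2 to 0.32 without CRE- replicate 2).

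Aox3, the main AOX of rodent liver, was at 569.8, 450.5, 664 and 366 CPM in male CRE- and 268, 595, 551 and 453 CPM in male LKO livers. LKO replicate 1 lay below every other male, and the remaining LKO livers lay inside the control range (log2 fold change -0.14 ± 0.30 SE, edgeR adjusted p = 0.916, and 0.04 without LKO replicate 1). Female CRE- livers held 224, 290.5, 315 and 141 CPM and female LKO livers 140.0, 209, 253 and 141 CPM. These overlapped as well (log2 fold change -0.39 ± 0.30 SE, edgeR adjusted p = 0.504, and from -0.57 without LKO replicate 3 to -0.24 without CRE- replicate 3).

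Whether the response to the knockout differed between the sexes was tested as an interaction. No gene was called by edgeR among those tested (0%), hence none of the 6, although 2672 genes had an unadjusted p under 0.05, DESeq2 called 372 genes and limma-voom 29. Of the 6, 0 had an unadjusted p under 0.05, and DESeq2 and limma-voom called 0. Fmo1 again had the smallest p of the 6, with a difference between the female and the male log2 fold change of -0.75 ± 0.38 SE (unadjusted p = 0.0663, edgeR adjusted p = 0.337). It was -0.48 without male LKO replicate 1, and -1.02 when the left-out library was male CRE- replicate 2. Without male LKO replicate 1 the interaction changed sign for Fmo2, Fmo4 and Aox1, from -0.84, -0.26 and -0.16 to 0.19, 0.17 and 0.06. That of Aox1 was 0.04 without female CRE- replicate 2, and that of Fmo5 changed from 0.60 to -0.04 without female LKO replicate 4. The mean of the male and the female change called 478 genes (2.86%) and 0 of the 6. It averages both changes, so a large change in a single sex can also give a call. The log2 values of this mean ran from -0.28 for Fmo4 to 0.28 for Fmo2, and 0 of the 6 had an unadjusted p under 0.05 or were called by DESeq2 or limma-voom. The value of Fmo2 was -0.22 when male LKO replicate 1 was left out and 0.70 when male CRE- replicate 2 was, and that of Fmo5 changed from -0.11 to 0.02 without male CRE- replicate 2 and to 0.01 without female LKO replicate 3. The value of Fmo4 was -0.48 without male LKO replicate 1, and -0.18 when the left-out library was male CRE- replicate 2.

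For Aox1 and Aox3 the log2 differences with sex were larger than those with genotype. Among controls, with all libraries, this also held for Fmo1, Fmo2 and Fmo4, but not for Fmo5. In CRE- livers Aox3 ran from 366 to 664 CPM in males and from 141 to 315 CPM in females. How many of all genes tested separated the sexes as Aox3 did was not counted. The log2 difference, female minus male, was -1.08 ± 0.30 SE (unadjusted p = 0.00248), which fell short after adjustment (edgeR adjusted p = 0.125), while the adjusted p was 0.0207 with DESeq2, 0.0364 with the replicate number as a block (log2 difference -1.12) and 0.125 with limma-voom. This comparison called 154 genes (0.92%; 68 without male CRE- replicate 1 to 213 without female LKO replicate 1) and 0 of the 6 genes by edgeR, 1 by DESeq2, 1 with the block and 0 by limma-voom, although 4 of them had an unadjusted p under 0.05 with edgeR, as did 2121 of the 16742 genes tested. Beside Aox3 these were Fmo1, higher in female controls (log2 difference 0.77 ± 0.27 SE, edgeR adjusted p = 0.242), Aox1, lower (-0.76 ± 0.28 SE, edgeR adjusted p = 0.264), and Fmo4, higher (0.63 ± 0.28 SE, edgeR adjusted p = 0.359). Fmo2 (0.90 ± 0.61 SE) and Fmo5 (-0.36 ± 0.36 SE) had larger p, and became 1.73 and -0.10 without male CRE- replicate 2.

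The sex difference was then averaged over both genotypes, so that all 16 mice entered it. This contrast was chosen after the values had been seen. It called 342 genes (2.04%), among them 2 of the 6, Aox3 and Aox1, both lower in females. Mean Aox3 was 513 ± 131 CPM in male CRE- and 467 ± 145 CPM in male LKO livers, against 243 ± 77.8 and 186 ± 55.4 CPM in the matching female groups (SD, n = 4 each). The log2 difference was -1.20 ± 0.21 SE (95% interval -1.66 to -0.75, edgeR adjusted p = 0.00515), and it passed in 16 of 16 fits without 1 library, with DESeq2 and with limma-voom. All males but LKO replicate 1 lay above every female, a pattern whose share among all genes tested was not counted. Mean Aox1 was 137 ± 30.7 and 166 ± 42.3 CPM in male CRE- and LKO livers and 80.8 ± 30.2 and 87.8 ± 24.8 CPM in the female ones (SD, n = 4 each). Its log2 difference was -0.84 ± 0.20 SE (edgeR adjusted p = 0.0345), a call kept in 6 of 16 fits without 1 library, with an adjusted p of 0.0512 without male LKO replicate 1 and at most 0.0825, and the adjusted p was 0.00207 with DESeq2 and 0.0529 with limma-voom. Fmo4 was higher in females by 0.50 ± 0.20 SE on the log2 scale without passing (edgeR adjusted p = 0.256), but passed with limma-voom (log2 difference 0.65, adjusted p = 0.0372) and without male LKO replicate 1 (log2 difference 0.70, edgeR adjusted p = 0.017). Without male LKO replicate 1 and male CRE- replicate 2 together, Fmo2 passed as well (log2 difference 1.39, edgeR adjusted p = 0.0143). With all libraries it did not (log2 difference 0.48 ± 0.43 SE, edgeR adjusted p = 0.661). These libraries were picked after the values had been seen and held the highest Fmo2 of the males (80.3 and 45.6 CPM). Leaving them out therefore lowers the male mean. Male LKO replicate 1 also had the highest Fmo4 of the males.

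**Figure D3:**
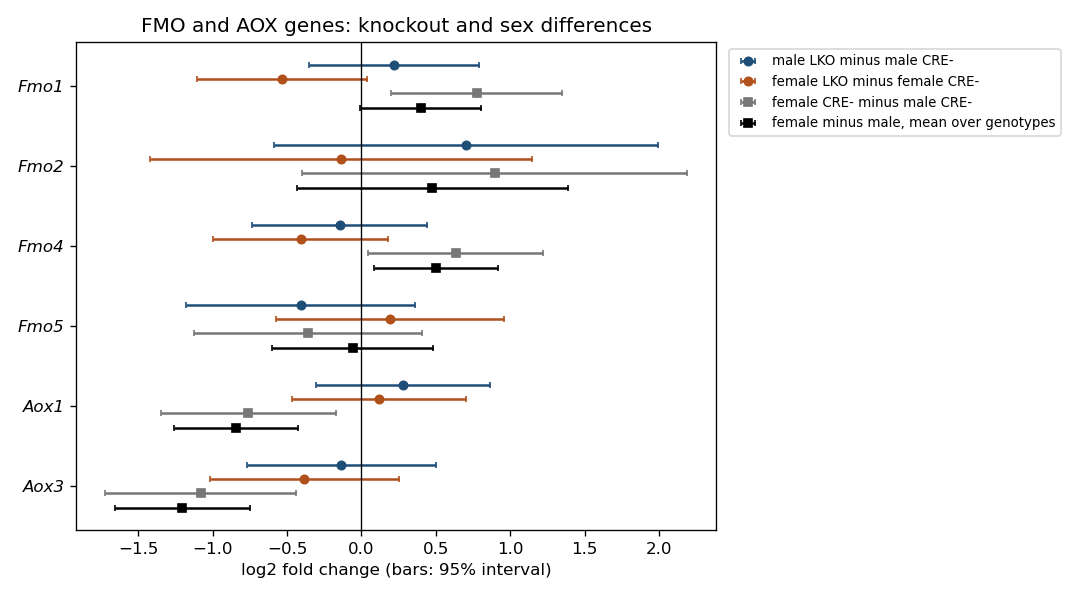
Log2 fold changes of the 6 genes with 95% intervals from the edgeR fit of all 16 libraries; circles compare LKO with CRE- within each sex and squares compare females with males. For Aox3 the sex difference averaged over genotypes is -1.20 (95% interval -1.66 to -0.75), whereas the intervals of both knockout comparisons include 0 for all 6 genes.

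The promoters of Aox1 and Aox3 are shown because these neighbors both had lower levels in females. RefSeq promoter windows, 250 bases before to 50 after the annotated start in build GRCm38.p6, were found for 5 of the 6 genes: Aox1, Aox3, Fmo2, Fmo4 and Fmo5, but not Fmo1. Each window matched GRCm39 exactly at 1 place on its chromosome, on the plus strand for both genes. For Aox1 the window is chr1:58029719-58030018 in GRCm38.p6 and chr1:58068878-58069177 in GRCm39, and for Aox3 it is chr1:58112886-58113185 and chr1:58152045-58152344. The annotated starts lie in exons of the counted genes. Capitals mark matches to TGACG, the core of the cyclic AMP response element, and to GCGTG, the core bound by the aryl hydrocarbon receptor, on either strand.
Aox1: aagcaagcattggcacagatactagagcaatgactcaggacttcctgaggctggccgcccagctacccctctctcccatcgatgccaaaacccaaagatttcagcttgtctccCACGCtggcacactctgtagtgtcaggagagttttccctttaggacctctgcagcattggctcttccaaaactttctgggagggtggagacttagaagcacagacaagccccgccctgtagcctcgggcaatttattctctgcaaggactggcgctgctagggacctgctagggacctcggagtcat
Aox3: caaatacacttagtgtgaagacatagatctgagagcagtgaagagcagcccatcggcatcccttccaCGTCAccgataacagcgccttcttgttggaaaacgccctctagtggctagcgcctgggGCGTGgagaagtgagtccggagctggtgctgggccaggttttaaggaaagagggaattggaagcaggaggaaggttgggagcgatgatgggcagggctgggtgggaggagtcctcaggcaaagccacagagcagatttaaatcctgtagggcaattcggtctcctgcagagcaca
Both windows held GCGTG, as did 32.4% of the 32851 RefSeq promoter windows. TGACG was present in the windows of Aox3, Fmo4 and Fmo5, and in 20.8% of all windows. In Fmo5 it lies at bases 257 to 261 of the window, after the annotated start. The GRCm39 windows of Fmo5 (chr3:97536085-97536384) and Fmo4 (chr1:162640069-162640368) lie within the counted genes and not at their outer ends. The full element TGACGTCA, present in 1.79% of windows and containing TGACG, and the antioxidant response element TGACNNNGC, present in 12.4%, were found in none of the 5 genes' windows. These are matches of letters and not measured binding sites.

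Fmo1, as the gene with the smallest p in the knockout comparisons, was set beside all other tested genes by the root-mean-square difference of standardized log2 CPM over the 16 libraries. The closest was Mpc1, a subunit of the mitochondrial pyruvate carrier (0.278 SD), followed by the sulfotransferase gene Sult1d1 (0.446 SD) and Crls1, the cardiolipin synthase gene (0.456 SD). After each group mean was subtracted, the order was Nr1i2, which encodes the xenobiotic receptor PXR (0.344 SD), Mpc1 (0.369 SD) and Crls1 (0.388 SD). Mpc1 and Crls1 were among the closest 3 by both measures, which use the same 16 libraries and are not independent.

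Genes for cofactors and partners of these enzymes included some that were called in females, where none of the 6 was. Of 10 genes for the molybdenum cofactor and molybdenum enzymes, 2 fell in female LKO and none was called in males, against 4.24% and 0.454% of all genes tested, with median log2 fold changes of -0.52 in females and 0.06 in males (5 and 0 of the 10 at an unadjusted p under 0.05). The 9 hepatocyte markers tested had medians of -0.55 in females and 0.03 in males, with none called in either sex, and their part in the levels of these cofactor genes was not tested. Mocos, which sulfurates the cofactor of the AOXs, fell from 87.3 ± 12.97 to 51.7 ± 7.72 CPM (SD, n = 4; log2 fold change -0.76 ± 0.17 SE, edgeR adjusted p = 0.0249, kept in 13 of 16 fits). Gphn, which inserts molybdenum into the cofactor, fell from 64.1 ± 11.9 to 41.7 ± 6.41 CPM (log2 fold change -0.62 ± 0.17 SE, edgeR adjusted p = 0.0497, kept in 3 of 16 fits). Neither change passed the interaction test (edgeR adjusted p = 0.238 for Mocos and 0.24 for Gphn). Among 7 NADPH-supplying genes, Idh1, the cytosolic isocitrate dehydrogenase gene, fell in female LKO from 596 ± 47.9 to 356 ± 50.4 CPM (log2 fold change -0.74 ± 0.19 SE, edgeR adjusted p = 0.0397, kept in 6 of 16 fits). It was the only 1 of the 7 called, against 4.24% of all genes tested, while 4 had an unadjusted p under 0.05 in females and 1 in males, with median log2 fold changes of -0.41 and -0.20. None of the 8 riboflavin and FAD genes was called by edgeR in either sex, although 1 in males and 3 in females had an unadjusted p under 0.05, as did 1595 and 3584 of the 16742 genes tested (median log2 fold change 0.03 in males and -0.10 in females).

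Genes of other oxidation enzymes and of retinoid metabolism were called in the same comparison. Of 12 oxidation partners outside the P450s, Maob, a mitochondrial amine oxidase gene, fell in female LKO from 349.5 ± 54.2 to 156 ± 62.3 CPM (log2 fold change -1.17 ± 0.26 SE, edgeR adjusted p = 0.0256, kept in 11 of 16 fits). Cyb5r3, the cytochrome b5 reductase gene, fell from 566 ± 133 to 295 ± 58.2 CPM (log2 fold change -0.94 ± 0.26 SE, edgeR adjusted p = 0.0493, kept in 1 of 16 fits). Of 15 genes in pathways that make AOX substrates, the retinol dehydrogenase genes Rdh16 (log2 fold change -1.34 ± 0.33 SE), Rdh10 (-0.56 ± 0.15 SE) and Rdh7 (-0.76 ± 0.21 SE) fell in female LKO (edgeR adjusted p = 0.0355, 0.0433 and 0.0484, kept in 9, 5 and 4 of 16 fits). In the mean over both sexes Maob (-0.75 ± 0.18 SE, edgeR adjusted p = 0.035, kept in 7 of 16 fits and 0.0746 without male LKO replicate 1) and Rdh16 (-1.15 ± 0.23 SE, edgeR adjusted p = 0.0133, kept in 16 of 16) were lower as well, and edgeR called 0 of these 12 and 15 genes in males alone (2 and 2 at an unadjusted p under 0.05, against 1595 of the 16742 genes tested). In females 2 of the 12 and 3 of the 15 were called, against 4.24% of all genes tested, and 4 and 8 had an unadjusted p under 0.05, against 3584 of 16742. The median log2 fold changes of the 2 lists were -0.49 and -0.56 in females and 0.30 and -0.09 in males.

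Among 14 transcription factor genes tied to FMO or AOX expression, Esr1, the estrogen receptor alpha gene, fell with the knockout in both sexes. It was 27.5 ± 8.23 CPM in male CRE- and 10.9 ± 2.99 CPM in male LKO livers (log2 fold change -1.33 ± 0.26 SE, edgeR adjusted p = 0.036, kept in 9 of 16 fits). In females it was 49.3 ± 8.23 CPM in CRE- and 19.8 ± 6.85 CPM in LKO (log2 fold change -1.32 ± 0.26 SE, edgeR adjusted p = 0.0173, kept in 15 of 16 fits, the exception being without female CRE- replicate 2), and the mean of both changes was -1.33 ± 0.19 SE (edgeR adjusted p = 0.000918, kept in 16 of 16 fits). The list's median log2 fold change was 0.05 in males and -0.27 in females.

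Sex-biased liver genes gave a scale for the sex differences above. Of 13 female-biased genes 7 were called higher in female than in male controls, with the P450 genes Cyp3a44 (log2 difference 6.71 ± 0.58 SE), Cyp3a41a (10.63 ± 0.92 SE) and Cyp2a4 (6.26 ± 0.93 SE) and A1bg (11.69 ± 1.499 SE) having the smallest p. Of 13 male-biased genes tested 8 were called lower in females, led by the P450 genes Cyp2d9 (-5.24 ± 0.51 SE), Cyp4a12a (-10.23 ± 1.06 SE) and Cyp4a12b (-8.90 ± 1.19 SE) and by Mup20 (-6.27 ± 1.03 SE). The edgeR adjusted p of these 8 named genes ranged from 4.56e-06 for Cyp3a44 to 0.00553 for Mup20, and each was kept in 16 of 16 fits. These 7 and 8 stand against 0.92% of all genes tested. Cyp4a12b had 0, 0, 0 and 6 reads in female CRE- livers, so its log2 difference is not exact. It became -12.64 without female CRE- replicate 4, and that of A1bg became 13.63 without male CRE- replicate 2. With the knockout 3 of the 13 female-biased genes fell in females, against 4.24%, Cyp3a44 (-2.85 ± 0.48 SE), A1bg (-4.75 ± 1.11 SE) and Cyp3a41a (-2.73 ± 0.64 SE; edgeR adjusted p = 0.00697, 0.0297 and 0.0298, kept in 16, 10 and 12 of 16 fits). All 13 had negative log2 fold changes in females, with a median of -1.55 and 4 at an unadjusted p under 0.05, whereas in males 9 of 13 were positive, with a median of 0.83, 5 at an unadjusted p under 0.05 and 0 called by edgeR. The summed level of the 13 genes was 1222 CPM in male LKO replicate 1 and 213, 208 and 248 CPM in the other male LKO livers. In male CRE- livers it was 72.7, 456, 120 and 75.7 CPM. The male median was not computed without male LKO replicate 1. A1bg was also lower in the mean of both changes (-3.10 ± 0.79 SE, edgeR adjusted p = 0.0446, kept in 4 of 16 fits), but its male means were only 0.751 CPM in CRE- and 0.281 CPM in LKO livers. Gstp1, a male-biased glutathione transferase gene, was higher in that mean (1.02 ± 0.26 SE, edgeR adjusted p = 0.0474, kept in 3 of 16 fits and 0.11 without male LKO replicate 1). It was the only 1 of the 13 male-biased genes tested that was called there, against 2.86% of all genes tested. With the knockout these 13 had median log2 fold changes of 0.90 in males and 0.68 in females, with 9 positive in each sex and 0 called in either.

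Markers of other cells also moved in female LKO livers, where fewer cells of a type and less RNA per cell cannot be told apart. Of 7 macrophage markers, Trem2 (log2 fold change 2.7 ± 0.60 SE, edgeR adjusted p = 0.0249, kept in 12 of 16 fits) and Adgre1 (2.15 ± 0.57 SE, edgeR adjusted p = 0.0452, kept in 6 of 16 fits, and 1.21 without female LKO replicate 1) rose, and Trem2 was also called in the mean of both changes (1.63 ± 0.41 SE, edgeR adjusted p = 0.0397, kept in 6 of 16 fits and 0.0871 without male LKO replicate 1). In female LKO 2 of 7 were thus called, against 4.24% of all genes tested, and all 7 had positive log2 fold changes with an unadjusted p under 0.05, with a median of 1.51 (0 of 7 at such a p in males, with a median of 0.06). The summed level of the list, led by Clec4f, was 446, 359, 377 and 608 CPM in female CRE- and 2117, 495, 1224 and 656 CPM in female LKO livers. In males it was 487, 282, 178 and 695.5 CPM in CRE- and 543, 332, 372 and 325 CPM in LKO. Of 5 neutrophil markers tested, Mmp8 (3.50 ± 0.79 SE, edgeR adjusted p = 0.0266) and Retnlg (2.86 ± 0.69 SE, edgeR adjusted p = 0.0331; each kept in 10 of 16 fits) rose in female LKO, and all 5 had an unadjusted p under 0.05, with a median log2 fold change of 3.17. Their list, led by S100a9, summed to 108, 42.8, 58.5 and 502 CPM in female LKO livers and to 35.0, 19.6, 16.5 and 16.2 CPM in female controls. In males the sums ran the other way, at 72.6, 19.6, 16.4 and 132 CPM in CRE- and 26.2, 15.8, 12.4 and 11.9 CPM in LKO, with a median log2 fold change of -2.23 and 0 of 5 called by edgeR (5 at an unadjusted p under 0.05). The highest sum of all was in female LKO replicate 4, the library with the highest Fmo5.

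Of 7 endothelial markers Cdh5 (log2 fold change 0.79 ± 0.17 SE, edgeR adjusted p = 0.025, kept in 12 of 16 fits) and Vwf (1.15 ± 0.28 SE, edgeR adjusted p = 0.0358, kept in 10 of 16) rose in female LKO, and Cdh5 in the mean of both changes (0.50 ± 0.12 SE, edgeR adjusted p = 0.0394, kept in 3 of 16 fits and 0.0846 without male LKO replicate 1). Of the 7, 5 had positive and 2 negative log2 fold changes in female LKO, with a median of 0.65, and 4 had an unadjusted p under 0.05. The 2 of 5 neutrophil and 2 of 7 endothelial markers called stand against the same 4.24%. edgeR called 0 of the 9 hepatocyte markers tested in female LKO (3 at an unadjusted p under 0.05), but all 9 had negative log2 fold changes in female LKO, with a median of -0.55. Their summed level was 118400, 117100, 123400 and 137200 CPM in female CRE- and 55140, 96100, 94500 and 72260 CPM in female LKO livers. The library with the lowest sum, female LKO replicate 1, also had the lowest Fmo1 of its group. Krt19, a cholangiocyte marker, was higher in female than in male controls (log2 difference 1.66 ± 0.35 SE, edgeR adjusted p = 0.03, kept in 8 of 16 fits) as 1 of 6 such markers, against 0.92% of all genes tested. The part of these cell markers in the levels of the FMO and AOX genes and of the other genes named above was not tested.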

How the data were processed

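Poly-A RNA of 16 livers was sequenced as paired reads. The authors aligned the reads with STAR 2.7.1a to GRCm39 and deposited raw counts per RefSeq gene, made with featureCounts of Subread 2.0.6 on the reverse strand setting. The file header gives the paired option without counting of read pairs, and 85.0% of the deposited counts from 1 to 10 are even, so both mates of a fragment were counted as reads. In 4 genes with at least 80% of their exon bases inside an abundant gene's exons on the other strand, 2 of them microRNA genes, read density was at most 4.88% of that gene's. With so few pairs, whether the counts keep strand is not certain.

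Counts were tested with edgeR 4.0.16 (R 4.3.3) in 1 fit of 4 groups, with TMM and filterByExpr at a minimum count of 10. CPM values use TMM library sizes, and log2 CPM a prior count of 2. Each SE given with an edgeR log2 value was derived from its F test, as the value's size divided by the square root of F. Intervals are 95% intervals from this SE and the degrees of freedom of the test. DESeq2 1.42.0, limma-voom (limma 3.58.1), other scalings and filters, a replicate block and fits without single libraries served as alternatives. The edgeR, DESeq2 and limma-voom fits were tested on simulated data in which only female LKO libraries held known differences. Replicate libraries differed beyond counting noise in every pair.

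The 6 genes and all gene lists were chosen with earlier results of these data known. Named were the 6 genes, Gcgr, the FMO and AOX genes with too few reads to test, up to 4 called genes per list and comparison in order of p, and the 3 genes most like Fmo1. Cux2, Xist and Ddx3y were named after their values were seen.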

Additional observations from a re-analysis of the deposited data

Results flagged for a closer look

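Values far from the rest of their group of 4 were looked for in 28 groups, those of the 6 genes and Gcgr, by the gap of the highest or lowest library to its nearest neighbor, divided by the group's range, against Dixon's 95% critical value. Chance marks about 1 in 20 such groups, and 5 were found here. In male LKO replicate 1, Fmo1 was at 288.9 CPM against 155 to 175 CPM in the other 3, and Fmo4 at 21.53 CPM against 8.15 to 10.1 CPM. In male CRE- replicate 2, Fmo2 was at 45.63 CPM against 8.43 to 13.9 CPM. Aox1 in male CRE- replicate 4 was low at 91.22 CPM, against 149 to 155 CPM. Gcgr in male CRE- replicate 3 was low at 127.3 CPM, against 190 to 193 CPM.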

How the results depend on the processing

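The analysis was repeated with other size factors (RLE), DESeq2, no filter, a stricter filter of 10 counts in all libraries, the replicate number as a block, weighted limma-voom, each sex alone and each library left out in turn. Leaving out male LKO replicate 1 together with female LKO replicate 4 (first pair) or with male CRE- replicate 2 (second pair), and the sex difference over both genotypes, were chosen after seeing the data. Over all alternatives, the log2 values of the 6 genes kept direction and side of the threshold in 821 cases, reversed in 35, passed newly in 7 and no longer passed in 13. The cause was not tested for any change below.

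Genes called in males numbered 336 with DESeq2, 148 with limma-voom and 26 without the second pair. In females they numbered 1795 with DESeq2, 1244 with the replicate block, 1976 with limma-voom and 119 with each sex alone. For the interaction they were 372 with DESeq2, 12 with no filter, 29 with limma-voom, 21 without the first and 105 without the second pair. For the mean of both changes they were 1009 with DESeq2, 857 with limma-voom and 199 without the second pair. The sex difference in controls gave 499 with DESeq2, 78 with the stricter filter, 329 with limma-voom and 242 without the first pair. Over both genotypes it gave 752 with DESeq2, 205 with the stricter filter and 545 with limma-voom. Of the 6 genes, the sex difference in controls called 1 with DESeq2 and 1 with the replicate block, Aox3 in both. Over both genotypes Aox3 passed in every alternative, whereas the adjusted p of Aox1 was 0.0529 with limma-voom and 0.0938 and 0.0954 without the first and second pair. Fmo4 passed there with limma-voom (0.0372) and without the first (0.0328) and second pair (0.00577), and Fmo2 without the second pair (0.0143). The second pair held the highest male levels of Fmo2 and of Fmo4.

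Without the first pair the male log2 fold changes became -0.0371 for Fmo1, -0.3151 for Fmo2 and 0.0391 for Aox3, and the female value of Fmo5 became -0.4588. The interaction became 0.0365 for Fmo2, 0.1368 for Fmo4 and 0.1689 for Aox1, and the mean of both changes -0.2969 for Fmo2. With limma-voom the female values were -0.3414 for Fmo5 and -0.0267 for Aox1, and the interaction of Fmo5 was -0.0571. Without the second pair the interaction of Aox1 was 0.0268 and the sex difference of Fmo5 over both genotypes 0.0914.

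With each library left out in turn, genes called ranged from 26 to 111 in males, 87 to 1310 in females, 0 to 14 for the interaction, 299 to 598 for the mean, 68 to 213 for sex in controls and 204 to 410 for sex over both genotypes, where 1 to 2 of the 6 genes were called. The signs that reversed had these ranges. Male: Fmo1 -0.0374 to 0.4884, Fmo2 -0.3154 to 1.534, Fmo4 -0.5702 to 0.0463 and Aox3 -0.2842 to 0.0389. Female: Fmo2 -0.3465 to 0.1131, Fmo5 -0.4589 to 0.4314 and Aox1 -0.0924 to 0.3168. Interaction: Fmo2 -1.6742 to 0.1906, Fmo4 -0.4574 to 0.1712, Fmo5 -0.0395 to 0.8509 and Aox1 -0.3724 to 0.0591. Mean: Fmo2 -0.2201 to 0.6969 and Fmo5 -0.4391 to 0.0174. Sex in controls: Gcgr -0.0414 to 0.1669. Sex over both genotypes: Fmo5 -0.3889 to 0.0683.

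The labels give replicate numbers but no pairing of mice, and the number was not in the fit. After group means were subtracted, correlations of CRE- and LKO libraries with the same number were 0.17, 0.17, 0.144 and -0.013 in males and 0.173, 0.105, 0.117 and 0.028 in females, and those of male with female CRE- libraries 0.211, 0.204, 0.027 and 0.332. Not every pair exceeded 0.1, and not every library correlated best with its own number (0.213 for male CRE- replicate 2 with LKO replicate 4). As a block it changed the calls from 710 to 1244 in females and gave Aox3 an adjusted p of 0.0364 for sex in controls. With 4 mice a group, small changes in these genes cannot be told from none.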
